A study of Mus musculus with 16 samples.

Results

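The genes described here are 9 that mark layer 6 corticothalamic neurons of the cortex: Rprm, Sulf1, Zfpm2, Foxp2, Tbr1, Crym, Tle4, Sox5 and Nfib. They were taken by symbol from the annotation of the array, where they have 17 of 25697 probes and are 9 of 16593 named genes. All 9 had at least 1 probe detected on every array and were therefore among the 8419 genes tested. The measurements come from 16 Illumina MouseRef-8 v2 arrays of RNA from the left and right medial prefrontal cortex (mPFC), a cortical area that governs social and emotional behaviour. Susceptible mice gave 3 arrays per side, resilient mice 3 per side and non-stressed control mice 2 per side.

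All mice were C57BL/6, in the study's methods C57BL/6 J males that were 8 weeks old at the first defeat, with no transgene or targeted allele in any group. Susceptible and resilient mice had both been through chronic social defeat, in which an aggressive CD-1 male attacks the mouse on consecutive days and then stays in sight and smell behind a divider. They were told apart afterwards by a social interaction test: susceptible mice avoided an unfamiliar CD-1 male, whereas resilient mice approached it. Control mice were housed in the same kind of cages without attacks. Tissue with the infralimbic and prelimbic areas was taken the day after that test, and equal amounts of RNA were pooled. The labels give 7 mice per group, while the methods give other numbers for resilient and control mice. The methods call the arrays biological replicates, but whether each holds a pool of its own is not stated. The p-values measure only the spread between arrays, which may be technical. Because bulk tissue was measured, fewer layer 6 cells and less RNA per cell cannot be told apart.

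Layer 6 is the deepest layer of the cortex, and its corticothalamic neurons send the feedback axons by which the cortex tunes the thalamus. Their identity is set in the embryo mainly by the transcription factor Tbr1, which holds back the program of the subcerebral neurons of layer 5, and part of that program stays on in the adult. Several of the 9 genes are not confined to these cells: Nfib is also made by glia, Crym and Sox5 by neurons of other deep layers, and Foxp2 and Crym by striatal neurons. The label could not be checked against single cells. Of 6 listed general neuronal genes, Snap25, Tubb3 and Nefl had no probe detected on every array and were not tested. The 3 tested were Rbfox3, Syt1 and Slc17a7, the last of which loads glutamate into vesicles of cortical excitatory neurons. These were detected on all 16 arrays. The summed normalized signal of these 3 genes was 20150 to 21500 on the left and 20980 to 21710 on the right in susceptible mice, 19700 to 20230 and 20360 to 20970 in resilient mice, and 20840 to 21040 and 20320 to 20980 in control mice. None of the 3 passed the test in any of the 11 comparisons.

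Mean raw signal per array was 380 to 502 in susceptible, 376 to 552 in resilient and 505 to 567 in control mice, and between 13648 and 14397 probes were detected on an array. In the deposited table the first 8 arrays, which are all 4 control arrays and replicate 1 of each stressed group and side, had mean signals of 466 to 567, and the last 8, replicates 2 and 3 of the stressed groups, 376 to 463. What this position stands for is not stated. All levels below are normalized log2 signals, that is, log2 of the raw signal after quantile normalization, and all differences are on that log2 scale with the standard error (SE) of the fit. Levels of different probes are not set against each other, because the hybridization of each probe differs. A gene is said to have changed, risen or fallen where its adjusted p, from limma with Benjamini-Hochberg adjustment over the 8419 genes, was below 0.05.

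RefSeq promoter windows (GRCm38.p6) run from 250 bases before to 50 bases after the start. None was at hand for Sulf1, Zfpm2, Foxp2, Crym and Nfib. Windows were at hand for 4 members: Rprm, Tbr1, Tle4 with a pair of starts, and Sox5. Each was searched on both strands for 4 words bound by families to which members belong: the T-box element GGTGTGA, a FOXP core TGTTTAC, a SOX core AACAAT and the NFI element TTGGCA, none of which overlap another in these windows. The T-box word stood in 0 of the 5 windows and in 3.98% of the 32851 windows of the table, the FOXP word in 0 of 5 and 3.65%, the SOX word in 2 of 5 and 10.7%, and the NFI word in 1 of 5 and 14.1%. The windows of Rprm, the member with the largest difference between sides, and of Tbr1, the regulator that defines the cell type, are shown. Rprm lies at chr2:54085503-54085802 on the minus strand and Tbr1 at chr2:61804203-61804502 on the plus strand, and capitals mark the SOX core in the Tbr1 window, while the Rprm window holds none of the 4 words.
Rprm: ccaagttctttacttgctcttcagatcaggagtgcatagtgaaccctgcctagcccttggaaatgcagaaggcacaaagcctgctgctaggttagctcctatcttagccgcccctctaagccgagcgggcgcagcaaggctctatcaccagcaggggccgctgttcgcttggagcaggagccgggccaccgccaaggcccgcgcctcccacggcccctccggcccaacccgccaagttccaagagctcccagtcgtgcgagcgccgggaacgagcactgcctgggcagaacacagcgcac
Tbr1: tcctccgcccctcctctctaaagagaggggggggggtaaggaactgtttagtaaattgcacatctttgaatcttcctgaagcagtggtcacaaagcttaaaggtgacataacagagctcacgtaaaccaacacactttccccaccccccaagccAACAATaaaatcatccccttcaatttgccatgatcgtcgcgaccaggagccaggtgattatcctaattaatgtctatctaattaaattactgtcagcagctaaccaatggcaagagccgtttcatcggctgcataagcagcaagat
A match of letters is a description and not a binding site.

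The transcription factors come first. Tbr1, the T-box factor on which layer 6 identity depends, had levels of 10.36, 10.43 and 10.23 on the left and 10.51, 10.62 and 10.50 on the right in susceptible mice, 10.62, 10.58 and 10.54 on the left and 10.53, 10.52 and 10.64 on the right in resilient mice, and 10.61 and 10.39 on the left and 10.40 and 10.56 on the right in control mice. Every left array of susceptible mice was below every right array, and the other groups overlapped between sides. The left minus right difference in susceptible mice was -0.20 ± 0.07 (SE, adjusted p = 0.09772), with a 95% interval of -0.34 to -0.06, so the test was not passed.

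Foxp2, a forkhead repressor that marks layer 6 and the striatum, had a probe near the middle of each array's signals, with raw signals of 102.8 to 152.9 and array medians of 89.4 to 111.6. Its levels were 6.73, 6.80 and 7.05 on the left and 6.97, 7.14 and 6.97 on the right in susceptible mice. In resilient mice they were 7.07, 7.05 and 7.06 on the left and 7.13, 7.05 and 6.91 on the right, and in control mice 6.91 and 6.97 on the left and 6.94 and 6.99 on the right. The sides overlapped in all 3 groups of mice. The difference in susceptible mice was -0.17 ± 0.07 (SE, adjusted p = 0.232), and without replicate 3 of the left, the highest of its group, it was -0.26 (adjusted p = 0.0359).

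Sox5, a SoxD factor that times the making of deep-layer neurons, had 9.58, 9.57 and 9.63 on the left and 9.83, 9.79 and 9.95 on the right in susceptible mice. Resilient mice had 9.72, 9.78 and 9.81 on the left and 9.66, 9.63 and 9.81 on the right, and control mice 9.69 and 9.78 on the left and 9.45 and 9.66 on the right. The sides were fully separate in susceptible mice, with the left lower, and in control mice, with the left higher. Sox5 was lower on the left of susceptible mice by a log2 difference of -0.26 ± 0.07 (SE, adjusted p = 0.01801), a ratio of 0.834, and the test was not passed without replicate 1 or 2 of the left (adjusted p = 0.0605 and 0.0667) or replicate 3 of the right (adjusted p = 0.118).

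Nfib, a nuclear factor I protein that acts in both neuronal and glial maturation, had 10.75, 10.85 and 10.70 on the left and 10.93, 11.20 and 11.05 on the right in susceptible mice. The levels were 11.03, 11.11 and 11.11 on the left and 11.12, 11.08 and 11.21 on the right in resilient mice, and 10.94 and 11.07 on the left and 10.96 and 10.91 on the right in control mice. Again the left arrays of susceptible mice all lay below the right ones, and were also the lowest 3 of the 16 arrays. Nfib was lower on the left than on the right of susceptible mice by a log2 difference of -0.29 ± 0.07 (SE, adjusted p = 0.007214), a ratio of 0.816. This did not pass the test without replicate 3 of the left (adjusted p = 0.0526) or replicate 2 of the right (adjusted p = 0.0748).

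The cofactors that work through such factors had larger differences between sides. Zfpm2, also called Fog2, a zinc finger protein that binds GATA factors and marks corticothalamic neurons, had 9.88, 9.96 and 9.82 on the left and 10.42, 10.45 and 10.34 on the right in susceptible mice. Resilient mice had 10.24, 10.26 and 10.17 on the left and 10.23, 10.17 and 10.32 on the right, and control mice 9.96 and 10.07 on the left and 9.83 and 9.88 on the right. The right arrays of susceptible mice were the highest of all, resilient arrays of both sides came next, and the left arrays of susceptible mice lay in or just under the span of control mice. The difference between sides in susceptible mice was -0.52 ± 0.06 (SE, adjusted p = 1.52e-06), a ratio of 0.699.

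Tle4, a Groucho corepressor that silences targets of many transcription factors, had 11.88, 11.81 and 11.83 on the left and 12.23, 12.16 and 12.29 on the right in susceptible mice. In resilient mice the levels were 12.08, 12.14 and 12.13 on the left and 12.28, 12.15 and 12.23 on the right, and in control mice 12.03 and 12.05 on the left and 11.84 and 11.91 on the right. On the probe used, the sides did not overlap in any of the 3 groups of mice, with the left lower in susceptible and resilient mice and higher in control mice. The difference passed the test in susceptible mice, at -0.39 ± 0.06 (SE, adjusted p = 5.156e-05), a ratio of 0.765, but did not at -0.10 ± 0.06 (adjusted p = 0.9899) in resilient and 0.17 ± 0.07 (adjusted p = 0.9244) in control mice.

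The remaining members act outside transcription. Rprm, reprimo, a glycoprotein induced by p53 that can halt the cell cycle and a sharp marker of layer 6 in the mouse, had 10.84, 10.83 and 10.68 on the left and 11.53, 11.63 and 11.68 on the right in susceptible mice. Resilient mice had 11.38, 11.29 and 11.43 on the left and 11.11, 11.52 and 11.49 on the right, and control mice 10.86 and 11.02 on the left and 10.84 and 10.80 on the right. The 3 right arrays of susceptible mice were above all others, resilient arrays of both sides followed, and the left arrays of susceptible mice lay in or just under the span of control mice. Rprm had the largest difference between sides of the 9 members, -0.83 ± 0.08 (SE, adjusted p = 8.737e-08), a ratio of 0.564.

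Sulf1, a secreted sulfatase that trims sulfate from heparan sulfate chains and so alters growth factor signals, had 8.39, 8.33 and 8.43 on the left and 9.03, 9.10 and 9.03 on the right in susceptible mice. Resilient mice had 9.06, 8.88 and 8.90 on the left and 9.01, 9.02 and 8.89 on the right, and control mice 8.77 and 8.66 on the left and 8.47 and 8.43 on the right. The left arrays of susceptible mice held the lowest values, reached only by replicate 2 of the control right at the second decimal, and control left arrays lay above control right arrays. The difference between sides in susceptible mice was -0.67 ± 0.06 (SE, adjusted p = 4.157e-08), a ratio of 0.628.

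Crym, mu-crystallin, which binds thyroid hormone in the cytosol, had 11.70, 11.65 and 11.57 on the left and 11.75, 11.67 and 11.93 on the right in susceptible mice. Resilient mice had 11.79, 11.75 and 11.65 on the left and 11.82, 11.75 and 11.84 on the right, and control mice 11.51 and 11.32 on the left and 11.48 and 11.53 on the right. Group means, left and right, were 11.64 and 11.78 in susceptible, 11.73 and 11.80 in resilient, and 11.41 and 11.50 in control mice. The sides overlapped in each group. The difference between sides in susceptible mice was -0.14 ± 0.07 (SE, adjusted p = 0.308).

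**Figure D1:**
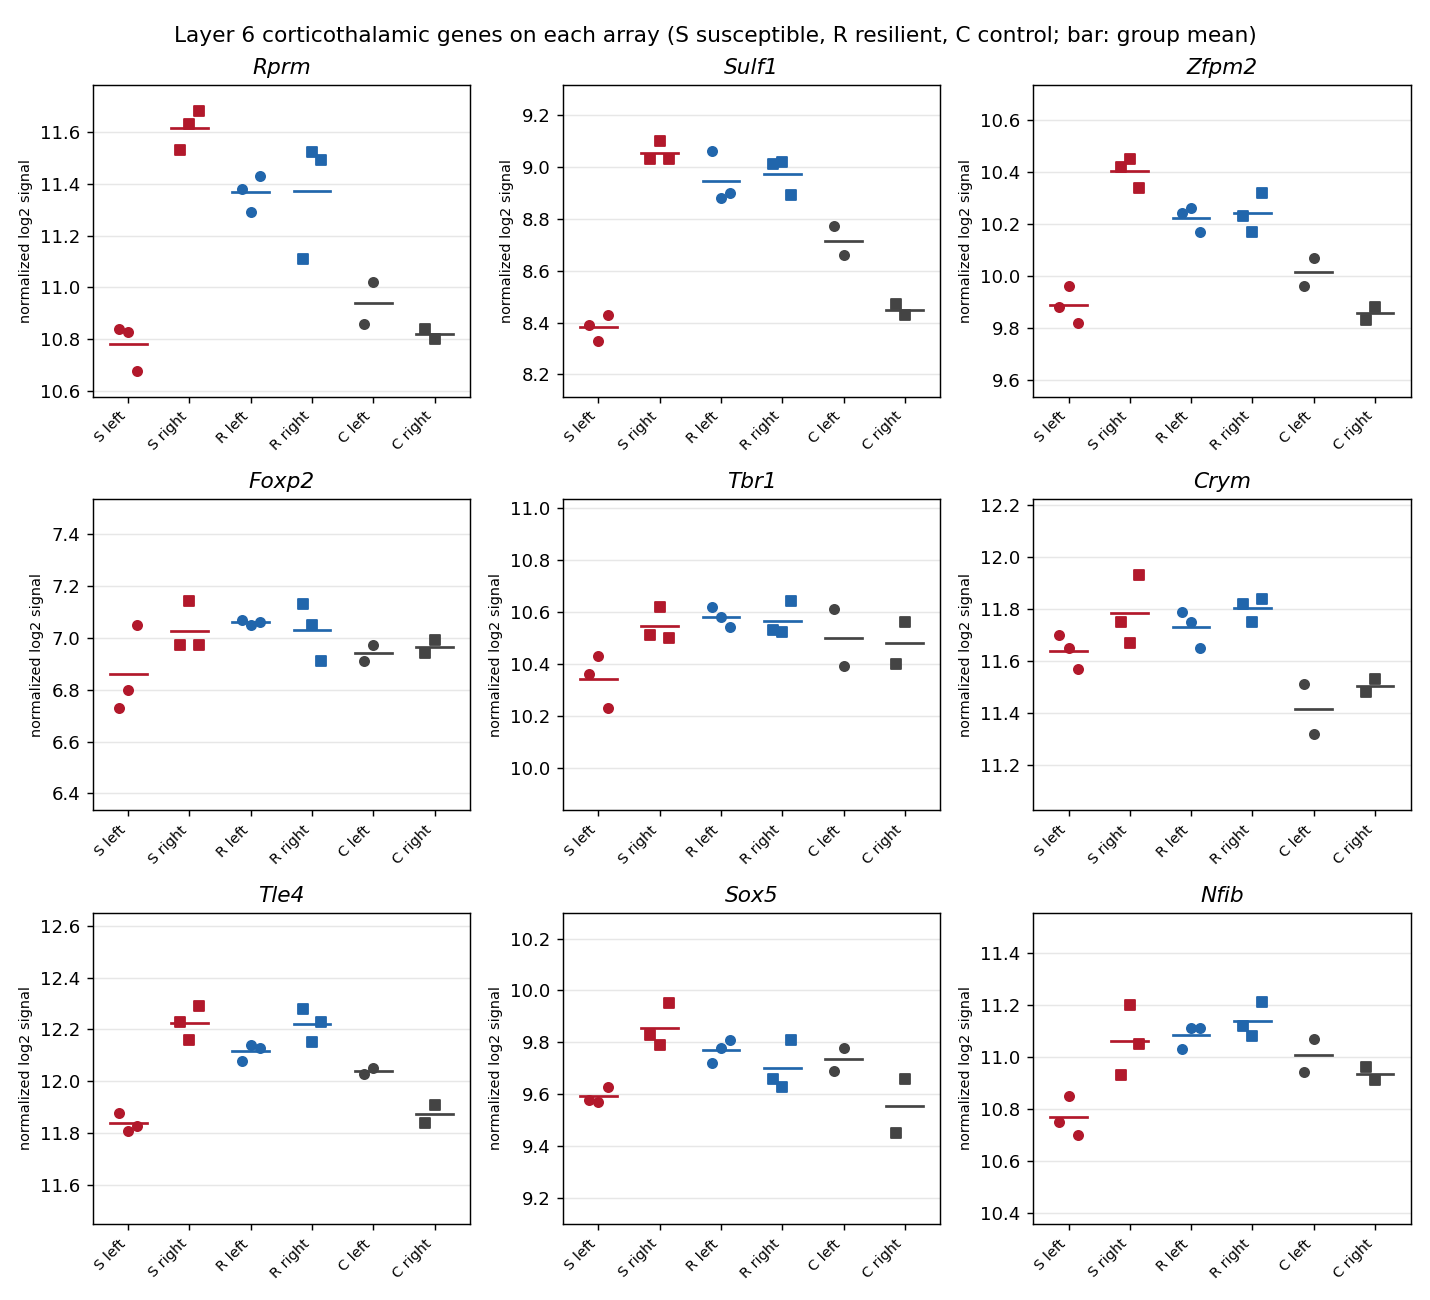
Normalized log2 signal (vertical axis) of each of the 9 members on every array, by mice and side, with points for arrays and a line for the group mean. In susceptible mice the left arrays of Rprm (10.68 to 10.84) lie below the right arrays (11.53 to 11.68). Group means of Crym are higher in both stressed groups than in control mice, but the test was not passed on the left of susceptible mice.

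Set together, 6 of the 9 members were lower on the left side of susceptible mice than on the right and none was higher: Rprm, Sulf1, Zfpm2, Tle4, Nfib and Sox5. Over all genes 2.45% were called lower and 5.21% were called in either direction. All 9 differences were negative, with a median of -0.29 against 0.00 over all genes, and in 7 members the left arrays all lay below the right arrays, as in 8.94% of all genes. The side difference of Rprm, Sulf1, Zfpm2 and Tle4 was -0.35 or lower within each part of the deposited table: in the last 8 arrays it was -0.90, -0.69, -0.51 and -0.40 (adjusted p = 2.77e-06, 4.65e-05, 0.00169 and 0.00541), and between the single left and single right array of the first 8 it was -0.68, -0.64, -0.54 and -0.35, values without replicates to test. When the arrays were brought only to an equal median, all 9 differences stayed negative, but only Rprm and Sulf1 passed the test (adjusted p = 0.000847 and 0.0194), as did 0.428% of all genes.

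In resilient mice none of the 9 members differed between left and right by the same limma fit, nor in control mice. The share of all genes called was 0.0356% in resilient and 0.0119% in control mice, or 3 and 1 genes, and 368 and 420 genes had an unadjusted p below 0.05. The differences in resilient mice ran from -0.10 for Tle4 to 0.07 for Sox5 with a median of -0.02. In these mice the 95% interval was -0.17 to 0.16 for Rprm, -0.16 to 0.10 for Sulf1 and -0.14 to 0.11 for Zfpm2, none of which reaches the size found in susceptible mice. In control mice the differences ran from -0.09 for Crym to 0.26 ± 0.08 for Sulf1 (adjusted p = 0.4557), with a median of 0.12. In 5 members both control left arrays were above both control right arrays, as in 18.7% of all genes.

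**Figure D2:**
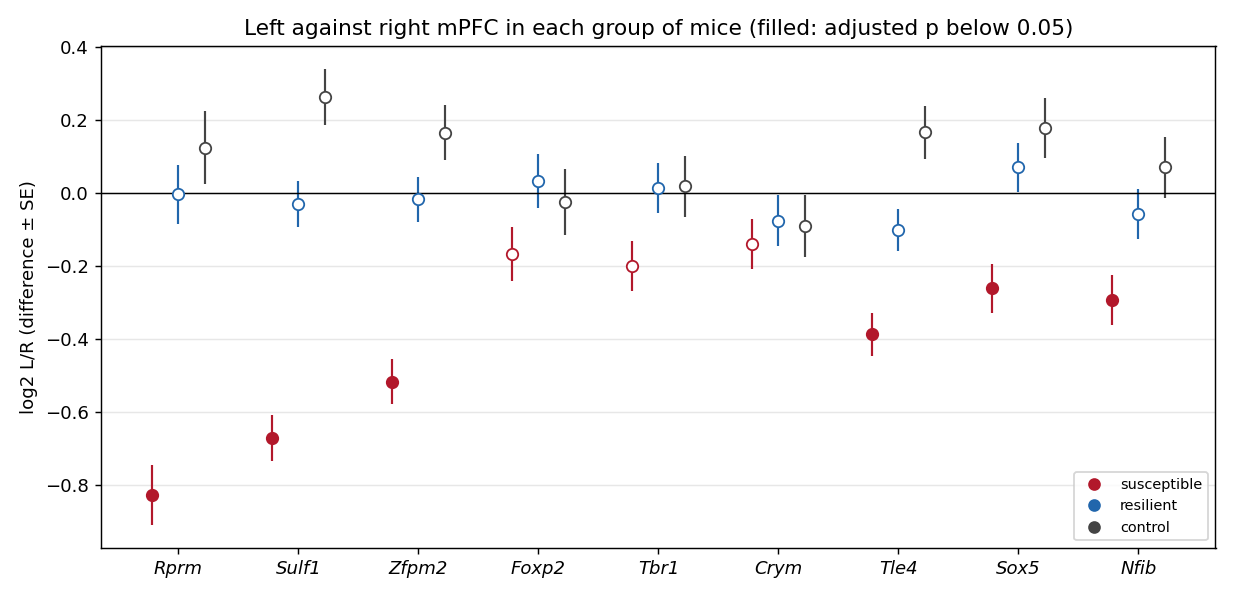
Left minus right difference (log2 L/R, vertical axis, points with SE bars) of each member in susceptible (n = 3 arrays per side), resilient (n = 3) and control mice (n = 2), filled where the adjusted p was below 0.05. The 6 filled points, from -0.83 for Rprm to -0.26 for Sox5, all belong to susceptible mice.

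The difference in laterality itself was tested, since a call in one group of mice and none in another does not show that they differ. Against resilient mice, the log2 L/R of susceptible mice was lower for 3 members, Rprm by -0.82 ± 0.12 (SE, adjusted p = 5.924e-05), Sulf1 by -0.64 ± 0.09 (adjusted p = 5.242e-05) and Zfpm2 by -0.50 ± 0.09 (adjusted p = 0.00094), where 1.12% of all genes were lower. Sox5 at -0.33 (adjusted p = 0.06623) and Tle4 at -0.29 (adjusted p = 0.06809) did not pass the test, nor did Nfib, Tbr1, Foxp2 and Crym, with -0.24, -0.21, -0.20 and -0.06. Without replicate 3 of the resilient right, Sox5 passed it at -0.39 (adjusted p = 0.0309). Tle4 passed with the authors' values and with the mean over probes (adjusted p = 0.0193 and 0.00871). Of 32 alternatives, Tle4 was called in 3 and Sox5 in 5. Within the last 8 arrays, with 2 arrays per group and side, Rprm was at -0.76 and Sulf1 at -0.62 (adjusted p = 0.00263 and 0.00953), and Zfpm2, at -0.48, was not called (adjusted p = 0.0762). The first 8 hold 1 array per group and side of these mice, which gave -0.96, -0.69 and -0.54 for the 3 genes, with no test. With median scaling none of these 3 calls held, at 1 gene called in all.

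Against control mice, the laterality of susceptible mice was lower for 5 members, where 1.39% of all genes were lower. These were Rprm at -0.95 ± 0.13 (SE, adjusted p = 3.482e-05), Sulf1 at -0.93 ± 0.10 (adjusted p = 1.317e-06), Zfpm2 at -0.68 ± 0.10 (adjusted p = 5.791e-05), Tle4 at -0.55 ± 0.09 (adjusted p = 0.0005209) and Sox5 at -0.44 ± 0.11 (adjusted p = 0.01895). Nfib, at -0.36, did not pass (adjusted p = 0.0731), and Tbr1, Foxp2 and Crym had -0.22, -0.14 and -0.05. The call of Sox5 rested on single arrays: its adjusted p was 0.134 without replicate 2 of the control left, 0.209 without replicate 1 of the control right and 0.0572 without replicate 3 of the susceptible right. With all arrays kept, Sox5 also did not pass with normexp background, at -0.48 (adjusted p = 0.0569). Nfib passed without replicate 1 of the susceptible right, at -0.43 (adjusted p = 0.0278). With median scaling Rprm alone was called (adjusted p = 0.0276), as were 11 genes in all.

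Stressed and control mice of the same side show on which side the members moved. The right mPFC of susceptible mice had 6 members higher than that of control mice and none lower, where 2.3% of all genes were higher. Rprm rose by 0.79 ± 0.09 (SE, adjusted p = 3.754e-06), Sulf1 by 0.60 ± 0.07 (adjusted p = 3.754e-06), Zfpm2 by 0.55 ± 0.07 (adjusted p = 8.191e-06), Tle4 by 0.35 ± 0.07 (adjusted p = 0.001666), Sox5 by 0.30 ± 0.08 (adjusted p = 0.01734) and Crym by 0.28 ± 0.08 (adjusted p = 0.03458). The values of Nfib, Foxp2 and Tbr1, at 0.12, 0.06 and 0.06, did not pass the test. Without replicate 1 of the control right the adjusted p was 0.0522 for Tle4, 0.353 for Sox5 and 0.242 for Crym, which left 3 members, and without replicate 3 of the susceptible right it was 0.0816 for Sox5 and 0.166 for Crym. Crym also did not pass without replicate 2 of the control right or replicate 1 of the susceptible right (adjusted p = 0.161 and 0.0523).

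On the left, Sulf1 was the one member whose probe used here differed between susceptible and control mice, at -0.33 ± 0.07 (SE, adjusted p = 0.005873), where 2.33% of all genes were lower. Without replicate 1 of the control left it was -0.27 (adjusted p = 0.186). Rprm and Zfpm2, whose laterality was large, had -0.16 (95% interval -0.34 to 0.03, adjusted p = 0.3537) and -0.13 (-0.27 to 0.01, adjusted p = 0.2933). Nfib at -0.24, Tle4 at -0.20, Tbr1 at -0.16, Sox5 at -0.14 and Foxp2 at -0.08 were also negative, and Crym was at 0.23 (adjusted p = 0.08895). Tle4 passed with the authors' values, the mean over probes and array weights (adjusted p = 0.0282, 0.0121 and 0.0383). Nfib passed without replicate 2 of the susceptible right, an array outside this comparison that shares its fit (adjusted p = 0.0494).

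Resilient mice, set against the same control arrays, had positive differences for all 9 members on both sides under quantile normalization. On the right 5 members were higher than in control mice, where 1.18% of all genes were: Rprm by 0.55 (adjusted p = 0.0008554), Sulf1 by 0.52 (adjusted p = 6.429e-05), Zfpm2 by 0.39 (adjusted p = 0.001867), Tle4 by 0.34 (adjusted p = 0.002986) and Crym by 0.30 (adjusted p = 0.03318). On the left 2 were higher, where 1.37% of all genes were: Rprm by 0.43 ± 0.09 (SE, adjusted p = 0.009351) and Crym by 0.32 ± 0.08 (adjusted p = 0.02345). Sulf1 at 0.23 (adjusted p = 0.07887) and Zfpm2 at 0.21 (adjusted p = 0.1074) did not pass on the left, and the other members there had 0.04 to 0.12. The left calls were both lost without replicate 1 of the control left (Rprm adjusted p = 0.244, Crym adjusted p = 0.0539), and Crym also without replicate 2 of it (adjusted p = 0.352) or without replicate 1 or 2 of the resilient left (adjusted p = 0.0535 and 0.0831). On the right, Tle4 and Crym were lost without replicate 1 of the control right (adjusted p = 0.0727 and 0.261), and Crym without its replicate 2 or without replicate 1 or 3 of the resilient right (adjusted p = 0.17, 0.0596 and 0.11).

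All control arrays stand in the first part of the deposited table. Those 8 hold 1 array per stressed group and side, so their differences from control mice are given with no test. On the right they were 0.71 for Rprm, 0.58 for Sulf1, 0.57 for Zfpm2, 0.35 for Tle4, 0.28 for Sox5 and 0.24 for Crym in susceptible mice, and 0.29 for Rprm, 0.56 for Sulf1, 0.38 for Zfpm2, 0.40 for Tle4 and 0.32 for Crym in resilient mice. On the left Sulf1 was at -0.33 in susceptible mice, and Rprm and Crym were at 0.44 and 0.37 in resilient mice. With table position as a block over all arrays, Sox5 was no longer called on the right of susceptible mice (0.27, adjusted p = 0.068), nor Rprm on the left of resilient mice (0.36, adjusted p = 0.0556), and Nfib was called on the left of susceptible mice (-0.29, adjusted p = 0.0428). These comparisons also depend on the scaling. Median scaling moved the median of all genes to -0.20 for susceptible and -0.17 for resilient against control mice on the left, and to -0.14 and -0.12 on the right. No member passed the test in any of these 4 comparisons under that scaling, where few genes did. The share of all genes called was 0.689% on the left and 0.19% on the right in susceptible mice. In resilient mice it was 0.0238% on each side. Relative to the shifted median, Rprm, Sulf1 and Zfpm2 were at 0.77, 0.56 and 0.51 in susceptible and 0.52, 0.49 and 0.34 in resilient mice on the right. On the left the same 3 genes were at -0.25, -0.39 and -0.22 in susceptible mice and at 0.34, 0.18 and 0.12 in resilient mice. As absolute values under that scaling, Zfpm2, Tbr1, Tle4, Sox5 and Nfib were negative on the left of resilient mice, at -0.04, -0.16, -0.12, -0.22 and -0.16, and Tbr1 and Sox5 on their right, at -0.09 and -0.03. In susceptible mice Crym was negative on the left, at -0.04, and Tbr1, Nfib and Foxp2 on the right, at -0.13, -0.06 and -0.00.

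**Figure D3:**
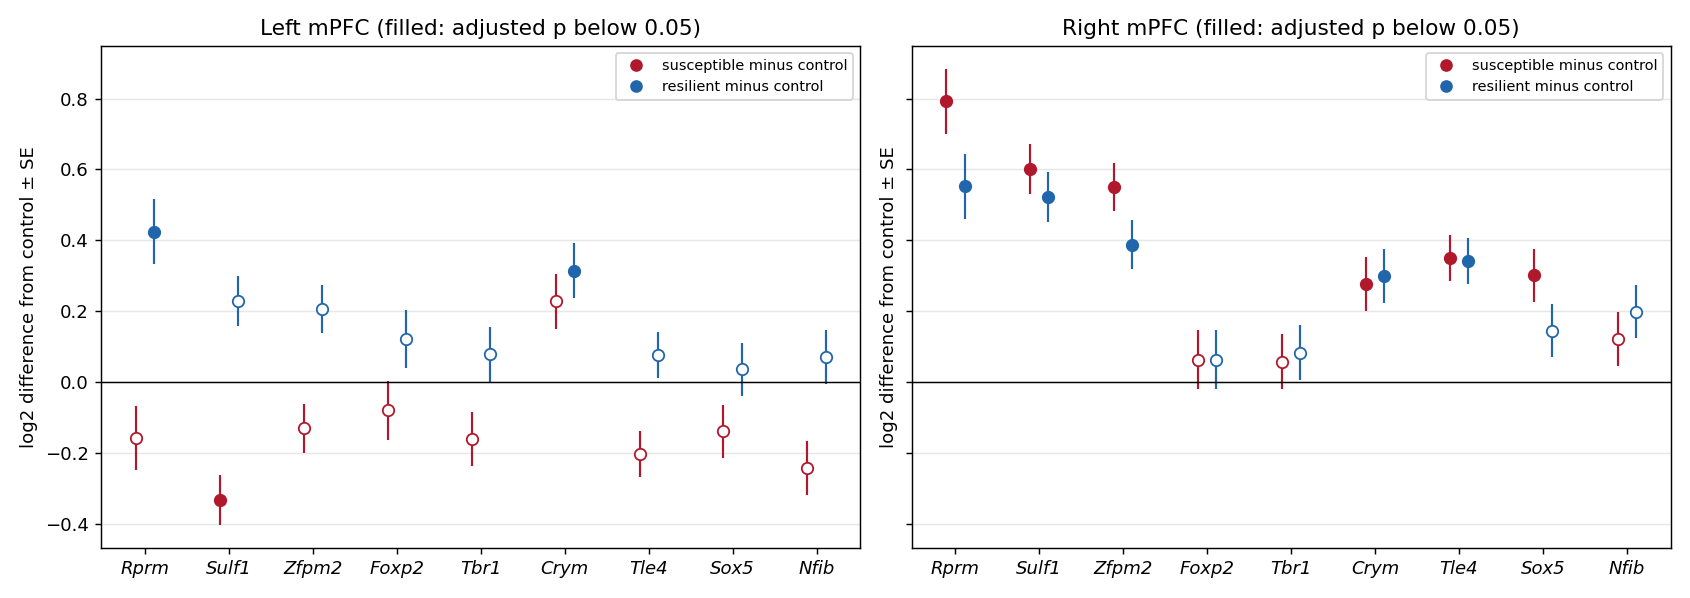
Difference from control mice of the same side (log2, vertical axis, points with SE bars) of each member in susceptible and resilient mice (n = 3 arrays each, against the same 2 control arrays), filled where the adjusted p was below 0.05. On the left Rprm is at -0.16 in susceptible and 0.43 in resilient mice, and on the right at 0.79 and 0.55.

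Between both groups of defeated mice, the members differed on the left. There 5 members were lower in susceptible than in resilient mice, where 1.52% of all genes were lower: Rprm by -0.58 ± 0.08 (SE, adjusted p = 3.567e-05), Sulf1 by -0.56 ± 0.06 (adjusted p = 9.787e-07), Zfpm2 by -0.34 ± 0.06 (adjusted p = 0.001207), Nfib by -0.31 ± 0.07 (adjusted p = 0.00704) and Tle4 by -0.28 ± 0.06 (adjusted p = 0.004938). In 8 members every susceptible array was below every resilient array, as in 8.15% of all genes, Crym being the exception at -0.09. For Foxp2 the gap was smaller than the second decimal, with the highest susceptible and the lowest resilient array both at 7.05. Tbr1 at -0.24 (adjusted p = 0.06737), Foxp2 at -0.20 and Sox5 at -0.17 did not pass. Without replicate 3 of the susceptible left, Nfib was lost (adjusted p = 0.056) and Foxp2 passed at -0.30 (adjusted p = 0.0262). Within the last 8 arrays Rprm and Sulf1 were at -0.60 and -0.51 (adjusted p = 0.000329 and 0.00151), and they were the members called there. The single arrays of the first 8 gave -0.54 and -0.67, with no test. With median scaling Rprm alone of the 5 was called (adjusted p = 0.021), as were 0.285% of all genes. There the adjusted p was 0.132 for Sulf1, 0.786 for Zfpm2, 0.756 for Tle4 and 0.516 for Nfib.

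On the right no member passed the test between susceptible and resilient mice with limma, where 0.831% of all genes were called and 1072 genes had an unadjusted p below 0.05. Rprm was at 0.24 (95% interval 0.07 to 0.41, adjusted p = 0.1858), Zfpm2 at 0.16 (0.04 to 0.29), Sox5 at 0.16 (0.02 to 0.29) and Sulf1 at 0.08 (-0.05 to 0.21). Nfib was the lowest, at -0.08 (-0.22 to 0.06).

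Members with several probes gave the same direction between sides of susceptible mice on every probe detected throughout. Of the 17 probes 14 were detected on all 16 arrays. The exceptions were 2 probes of Sox5, detected on 9 and 8 arrays, and 1 of Foxp2, detected on none. The other probes of Tle4 were at -0.41 and -0.29 (adjusted p = 0.0001443 and 0.03155 over 11922 probes), that of Sox5 at -0.29 (adjusted p = 0.005558) and those of Foxp2 at -0.18 and -0.26 (adjusted p = 0.1752 and 0.08801). The probes of Tle4 parted in other comparisons. In resilient mice one of its other probes had a left minus right difference of 0.20 (unadjusted p = 0.005014, adjusted p = 0.9983), against -0.10 on the probe used. The same probe was lower on the left of susceptible than of control mice, at -0.40 (adjusted p = 0.002225), where the probe used was not called. It had a laterality in susceptible against resilient mice of -0.62 (adjusted p = 0.0001818), and both other probes missed the test on the right in susceptible against control mice, at 0.23 and 0.19 (adjusted p = 0.07403 and 0.2715). In resilient against control mice on the right they were at 0.03 and 0.20 (adjusted p = 0.892 and 0.2942).

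Over the 16 arrays, the members followed each other to different degrees. As a description, over arrays that share groups and normalization, the Pearson r of a member with the mean of the other 8 was 0.94 for Sulf1, 0.93 for Zfpm2, 0.93 for Tle4 and 0.91 for Rprm. It was 0.78 for Nfib, 0.70 for Sox5, 0.66 for Tbr1, 0.55 for Crym and 0.50 for Foxp2. The SD of the log2 level over the 16 arrays was 0.34 for Rprm, 0.28 for Sulf1, 0.21 for Zfpm2, 0.16 for both Crym and Tle4, 0.15 for Nfib, 0.12 for Sox5 and 0.11 for both Foxp2 and Tbr1. The 8 genes outside the list whose levels ran most like the mean of the members over the 16 arrays were Ccn2 (r = 0.96), Itgb4, Anln and Rai14 (0.95 each), and Nmral1, Sema5a, Mog and Litaf (0.94 each). Ccn2 is the connective tissue growth factor, long called Ctgf, which in the cortex marks layer 6b, and Mog is a protein of the myelin surface.

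Other markers of the same cells moved alike in part. Of 8 further corticothalamic markers 4 were tested, and 3 of these were lower on the left than on the right of susceptible mice: Igsf21, a synaptic adhesion protein, at -0.44 ± 0.07 (SE, adjusted p = 0.0002947), Thsd7b at -0.35 ± 0.07 (adjusted p = 0.002191) and Ntsr1, the neurotensin receptor, at -0.34 ± 0.07 (adjusted p = 0.00282). Kcnk2, a background potassium channel, was at -0.05 ± 0.08 (adjusted p = 0.848). The median of the 4 was -0.35, against 0.00 over all genes. In the test of laterality itself, Igsf21 alone of the 4 was lower in susceptible than in resilient mice. Against control mice none of the 4 passed. Over all genes 1.12% and 1.39% were lower in these tests. On the right, Ntsr1 was higher than in control mice by 0.48 in susceptible and 0.44 in resilient mice, and Igsf21 by 0.43 in susceptible mice. On the left, Ntsr1 and Igsf21 were higher in resilient than in control mice, by 0.48 and 0.34, and lower in susceptible than in resilient mice, by -0.29 each. Kcnk2 went the other way, being lower in susceptible than in control mice on the left and on the right, at -0.34 each (adjusted p = 0.02722 and 0.02553).

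Of the regulators that divide deep-layer fates, 7 of 11 were tested. Bcl11b, known as Ctip2 and the marker of subcerebral neurons of layer 5, was lower on the left of susceptible mice, at -0.28 ± 0.07 (SE, adjusted p = 0.01484), and the other 6 did not pass. Fezf2, which specifies those subcerebral neurons, was at -0.08 (adjusted p = 0.612) between sides, but was higher than in control mice on the right, by 0.33 in susceptible and 0.30 in resilient mice. Id2, an inhibitor of basic helix-loop-helix factors, was lower than in control mice on the left, at -0.48 in susceptible and -0.65 in resilient mice.

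Among close relatives of the members 9 of 16 were tested, and the 3 that passed between sides of susceptible mice were all higher on the left, opposite to their member relatives. They were Tle1, a second Groucho corepressor, at 0.38 ± 0.06 (SE, adjusted p = 6.339e-05), Zfpm1, the Fog1 cofactor, at 0.31 ± 0.06 (adjusted p = 0.001722) and Tle6 at 0.28 ± 0.08 (adjusted p = 0.03237). The laterality of Tle1 and Zfpm1 also differed between susceptible and resilient mice, by 0.36 and 0.39 (adjusted p = 0.0136 and 0.0103). In pathways around single members few genes passed. Of 9 genes that handle thyroid hormone, the ligand of Crym, 4 were tested and none passed between sides of susceptible mice, of 6 tested of 11 heparan sulfate genes only Extl3, a chain-starting enzyme, passed, at 0.22, and of 5 tested of 7 genes of the p53 pathway only Gadd45a, a growth arrest gene, passed, at -0.39.

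Between sides of susceptible mice, all oligodendrocyte and most striatal markers tested were lower on the left, like 6 of the members. Of the layer 6b markers tested only Ccn2 was. Most layer 2/3 and all meningeal markers tested were higher there. The part of these markers in the members' differences was not tested. Of 11 oligodendrocyte markers 9 were tested, and all 9 were lower on the left of susceptible mice than on the right, with a median of -0.58, Trf, transferrin, which oligodendrocytes make as an iron carrier, at -0.75 and Mog at -0.68 among them. Their summed normalized signal was 23580 to 24020 on the left and 35380 to 35840 on the right in susceptible mice, 35660 to 37590 and 35110 to 36830 in resilient mice, and 33500 to 34060 and 30650 to 31330 in control mice. The sum over the 9 members was 13370 to 14120 on the left and 17540 to 18690 on the right in susceptible mice. It was 16810 to 16910 and 17170 to 18060 in resilient mice, and 14850 to 14870 and 13790 to 14250 in control mice. Such sums weigh bright probes most, as the mean normalized signal of the probe used was 4309 for Tle4 and 127 for Foxp2. The left arrays of susceptible mice thus had the lowest oligodendrocyte sums of all arrays, below both sides of control mice, while on the right of susceptible mice 4 of the 9 markers were higher than in control mice.

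Layer 6b lies just under layer 6, and of its 5 markers 3 were tested. Ccn2 was lower on the left of susceptible mice by -0.92 ± 0.06 (SE, adjusted p = 6.623e-11), and Nr4a2 and Moxd1 did not pass. The layer 6b sum was 1488 to 1518 on the left and 2494 to 2669 on the right in susceptible mice, 2465 to 2580 and 2369 to 2516 in resilient mice, and 1637 to 1658 and 1460 to 1591 in control mice. Of the layer 5 markers all 7 were tested, with Bcl11b the one that passed and a median of 0.06.

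The upper layers ran the other way. Of 8 markers of layer 2/3, 5 were tested and 4 were higher on the left of susceptible mice, with Cux2, the homeobox gene of upper-layer neurons, at 1.07 ± 0.08 (SE, adjusted p = 7.691e-10) and a median of 0.78. Their sum was 2964 to 3056 on the left and 1730 to 1874 on the right in susceptible mice, 2300 to 2415 and 2186 to 2453 in resilient mice, and 2435 to 2455 and 2601 to 2624 in control mice. Of 7 meningeal fibroblast markers 4 were tested and all 4 were higher on the left of susceptible mice, with Dcn, the matrix protein decorin, at 0.83 ± 0.06 (adjusted p = 9.89e-10). Their sum was 1591 to 1690 on the left and 1009 to 1051 on the right in susceptible mice, 1350 to 1415 and 1343 to 1437 in resilient mice, and 1202 to 1239 and 1402 to 1418 in control mice.

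Striatal neurons also make Foxp2 and Crym, and the part of striatal RNA in the levels of these genes was not tested. Of 9 listed striatal markers, 5 were tested and 4 were lower on the left of susceptible mice. Ppp1r1b, the dopamine signalling protein DARPP-32, was at -0.46 ± 0.06 (SE, adjusted p = 1.577e-05) and Drd1, a dopamine receptor, at -0.33 ± 0.06 (adjusted p = 0.001374). The striatal sum was 2593 to 2697 on the left and 3305 to 3386 on the right in susceptible mice, 3375 to 3508 and 3196 to 3350 in resilient mice, and 2670 to 2759 and 2653 to 2703 in control mice. Of the astrocyte markers 5 of 6 and of the microglial markers 5 of 6 were tested, and none passed between sides of susceptible mice.

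**Figure D4:**
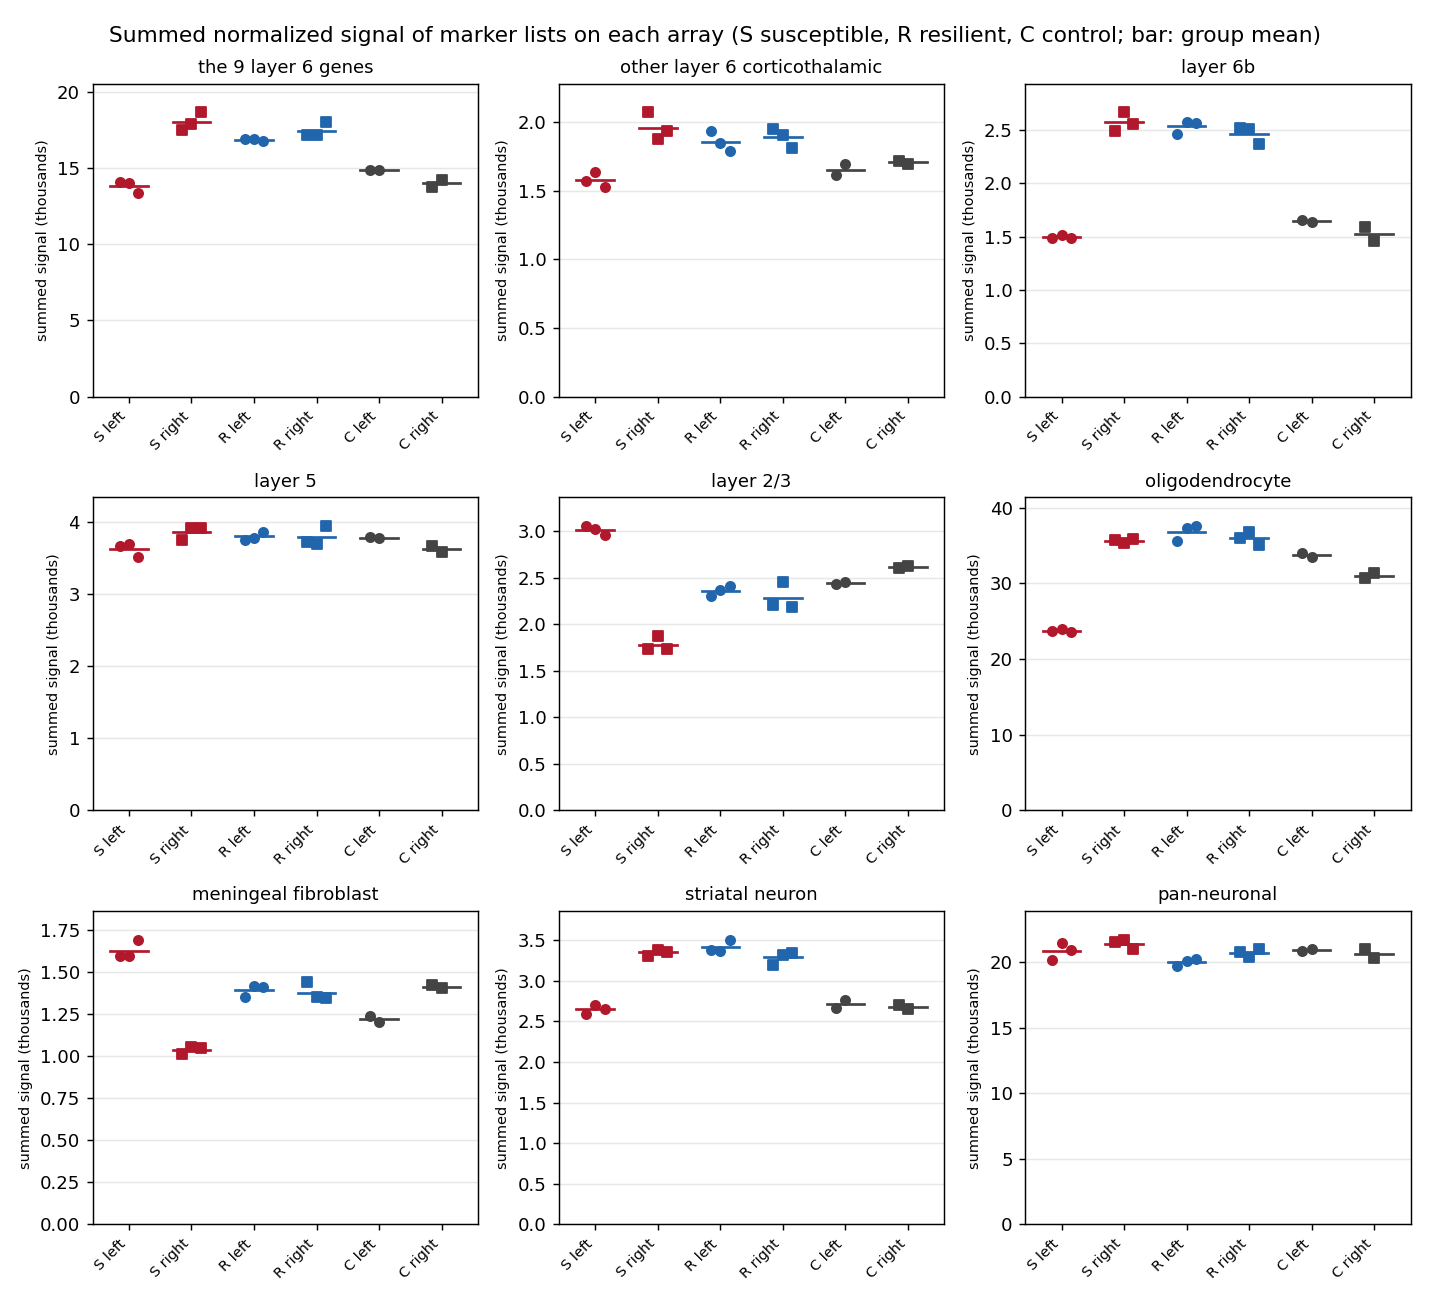
Summed normalized signal (vertical axis, linear scale) of the members and of 8 marker lists on every array, by mice and side. In susceptible mice the sums of members, oligodendrocyte and layer 6b markers are lower on the left than on the right. Those of layer 2/3 and meningeal markers are higher on the left. Of the layer 6b markers only Ccn2 passed the test between these sides.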

How the data were processed

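RNA of the left and right mPFC was hybridized to 16 Illumina MouseRef-8 v2 arrays. Per the labels the authors read them with GenomeStudio 1.0.6 and deposited each probe's average intensity (linear, no background subtracted, 51.9 to 37310). Bright probes have a deposited detection score near 1, and 1 minus this score served as detection p. Deposited too by the authors were log2 values normalized with lumi, from 6.91 to 15.03, whose method is not given in the sources used here and which served as an alternative. No pair of arrays was identical. Array number limits the precision.

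The log2 of the raw signals was quantile normalized. The 11922 probes that reached a detection p of at most 0.05 throughout the 16 arrays were kept, and the brightest probe per symbol stood for each of 8419 genes. Of 25697 probes 23978 have 1 symbol, none has several and 1719 have none. A model with 6 groups was fitted over all genes with lmFit and eBayes of limma 3.58.1 in R 4.3.3 (10 residual and 16.0 prior degrees of freedom), and 11 comparisons were taken from it with Benjamini-Hochberg adjustment and a threshold of 0.05. The script was tested on simulated data with known changes. Promoter windows are from RefSeq (GRCm38.p6), and plots made with matplotlib 3.10.9 (Python 3.11.15). The promoter of Sulf1 and protein sequences were not used here.

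The members and the gene lists were chosen with earlier results of these data known. All 9 members are named, then per list the count and at most 4 called genes with the largest change, and by likeness the 8 genes whose levels correlate best with the members' mean. Alternatives were other normalizations, background corrections, detection limits, probe choices and variance models, the replicate number as a block, position in the deposited table, and each array left out.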

Additional observations from a re-analysis of the deposited data

Results flagged for a closer look

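The left minus right difference itself differed between groups of mice for some members, by a test of that difference in the limma fit with Benjamini-Hochberg adjustment over 8419 genes. Susceptible against resilient mice differed in laterality by -0.82 for Rprm, -0.64 for Sulf1 and -0.50 for Zfpm2 on the log2 scale. Susceptible against control mice differed by -0.95 for Rprm, -0.93 for Sulf1, -0.68 for Zfpm2, -0.55 for Tle4 and -0.44 for Sox5. In each case the log2 L/R was negative in susceptible mice. Groups of 2 or 3 arrays are too small for a test of single outlying arrays.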

How the results depend on the processing

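Across 32 alternatives the 99 member results gave 3060 values, of which 2953 kept their side of the threshold, 81 lost a call and 26 gained one. Of called values 0 changed sign. Among the 2953 were 55 values that were not called and changed sign. The calls of Rprm and Sulf1 between sides of susceptible mice held in all 32. Scaling to a common median changed most. The members called became 2 for the sides of susceptible mice (against 6), 0 for laterality in susceptible against resilient mice (3), 1 for laterality in susceptible against control mice (5), 0 for susceptible against control mice on the left (1) and 0 on the right (6), 0 for resilient against control mice on the left (2) and 0 on the right (5), and 1 for susceptible against resilient mice on the left (5). Calls fell over all genes too. In the same order, 36, 1, 11, 58, 16, 2, 2 and 24 of 8419 genes were called under that scaling. With quantile normalization these were 439, 181, 221, 357, 411, 227, 190 and 200. The cause was not tested.

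Susceptible against control mice on the left gave 2 members with cyclic loess, with the authors' values, with the mean over probes and with table position as a block. With array weights that comparison gave 4, of which Crym was higher, at 0.23 (adjusted p = 0.045), and the others lower. Resilient against control mice on the left gave 0 with normexp background, 4 with array weights and 1 with table position as a block. With normexp background Crym was also lost on the right, in susceptible and resilient against control mice (adjusted p = 0.0924 and 0.0971). The same background lost Sox5 for laterality in susceptible against control mice (adjusted p = 0.0569). Laterality in susceptible against resilient mice gave 5 with the mean over probes. The share of all genes called in each of these settings is not given here, so these counts describe the members alone. The last 8 arrays alone gave 2 for susceptible against resilient mice on the left. The first 8 alone gave 3 for the sides of susceptible mice, 3 for resilient against control mice on the right and 2 for susceptible against resilient mice on the left. Both of these were chosen after seeing the data, and the smaller number of arrays is part of their construction. The first 8 hold 1 array per stressed group and side, assumed in that fit to vary like the control arrays, so its counts are no support for a call.

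With single arrays left out, the members called ranged over 5 to 6 for the sides of susceptible mice, 0 to 0 for those of resilient and of control mice, 3 to 4 and 4 to 6 for laterality in susceptible against resilient and against control mice, 0 to 2 and 3 to 6 for susceptible against control mice on the left and right, 0 to 2 and 3 to 5 for resilient against control mice on the left and right, and 5 to 5 and 0 to 0 for susceptible against resilient mice on the left and right. Where this left 1 control array, it was assumed to vary like the other groups. The shares of all genes called in these fits are not given here.

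Arrays with one replicate number deviated together only weakly (r = 0.19, 0.17 and 0.09 in susceptible, 0.34, -0.02 and 0.06 in resilient and 0.01 and 0.01 in control mice), so the numbers were not taken to pair left and right. With the replicate block, the members called between sides of susceptible mice were 6. There 6.03% of all genes were called with the number as a term and 6.32% with left and right as a pair. Sox5 passed for laterality in susceptible against resilient mice (adjusted p = 0.0323 with the number as a term and 0.0302 in the paired fit). Nfib passed for laterality against control mice in the paired fit (adjusted p = 0.0406). No other member call changed. The deposited signals carry no background subtraction, and the probe used for Foxp2 lies close to the array medians, which limits what it can show.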
